A study of Mus musculus with 8 samples.

Results

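The semaphorins, their plexin and neuropilin receptors and the Mical enzymes that act below them were examined in the whole brains of E14.5 WT mouse embryos. Dams received a choline-deficient diet (CDD, 4 brains) or a normal diet (ND, 4 brains), and RNA with poly-A tails was sequenced in bulk. All embryos were WT, and the groups are labelled by maternal diet. The CDD began at mating according to the methods, although the supplement also places its start earlier. Dams and litters are not given for these brains, so their part cannot be told apart from that of diet, and brains may share litters. The p-values set the difference between the diets against the spread between brains of the same diet. Members were the protein-coding genes whose symbols belong to class 3 to class 7 semaphorins, plexins A to D, neuropilins 1 and 2 or Micals 1 to 3. These were 34 of the 18030 protein-coding genes and of the 33971 genes in the table. No value entered this rule on names, but the family was itself selected on the diet comparison of these same brains, so the counts and calls that follow describe it and support nothing further. All 34 members passed the filter on low counts, among 19367 genes tested.

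Semaphorins are extracellular guidance proteins that share a sema domain. They are read by plexins, single-pass receptors whose intracellular part acts on small GTPases of the Ras family and changes the cytoskeleton of growing axons and migrating cells. Class 3 semaphorins are secreted, and most need a neuropilin to hold the ligand for a plexin-A receptor, whereas semaphorins of classes 4 to 7 are held on the membrane and bind plexins directly. Micals are flavoprotein monooxygenases that oxidise actin and so take filaments apart. In the embryonic brain the family is known for axon repulsion, the laying of fibre tracts, neuronal migration and vessel patterning.

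Library totals were between 31770217 and 43121170 counts, and no pair of brains had counts within sampling noise (chi-square per degree of freedom 3.76 to 30.8 over 28 pairs). On this measure CDD replicate 4 was farthest from the ND brains (21.4 to 30.8) and was at 10.4 to 22.5 from the other CDD brains. CDD replicate 3 was nearer to ND replicate 2 (4.01) than to any CDD brain (5.98 to 22.5). CPM (counts of a gene after scaling to a common library size) was summed over 28 Hox genes of the table. CDD replicate 2 stood apart with 144 CPM, against 0.468 to 3.38 CPM in the 7 other brains. Its part in the results was not tested, and member calls are given with and without it. Neuronal and progenitor markers identified the tissue, with 7492 to 8327 CPM summed over 12 neuronal genes in CDD and 7675 to 7950 CPM in ND brains (2 called lower). In whole-brain RNA, fewer cells of a type and less RNA per cell cannot be told apart. The 12 radial glia genes summed to 2459 to 2794 CPM in CDD and 2246 to 2353 CPM in ND brains, and 5 of them were called higher. The 7 intermediate progenitor genes lay at 478 to 538 against 450 to 497 CPM, which overlapped, with 3 called higher. The sums of 3 lists were lower in every CDD brain than in any ND brain. The 6 oligodendrocyte precursor genes were at 95.6 to 112 against 119 to 139 CPM (3 called lower), the 10 microglial genes at 76.2 to 83.2 against 84.8 to 100 CPM (2 called lower) and the 10 endothelial genes at 290 to 315 against 316 to 336 CPM (1 called lower). The 10 meningeal genes were at 477 to 530 against 510 to 613 CPM (5 called lower, 1 higher), which overlapped. The sums of the 6 mural genes (1 called higher, 1 lower), the 6 choroid plexus genes (1 called higher) and the 9 erythroid genes (2 called higher) also overlapped between the diets. No gene of these 10 lists was at 0 counts in any brain, whereas each of the 15 genes of the caudal hindbrain and spinal cord list was at 0 in at least 1 brain. The part of these cell type differences in the results on members was not tested.

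Of the 34 members, 7 differed between the diets at an adjusted p under 0.05 in edgeR's quasi-likelihood test with Benjamini-Hochberg adjustment over all genes tested, where 8.83% of all tested genes did. The genes *Sema5a* and *Sema6d* rose (4.24% of all genes were called higher), and *Mical2*, *Sema4g*, *Sema7a*, *Sema6b* and *Sema4f* fell (4.59% were called lower). The calls thus lay on 6 of 20 ligands and 1 of 3 Mical effectors, and on 0 of 9 plexins and 0 of 2 neuropilins, of which 3 had an unadjusted p under 0.05. Whether ligands and receptors differed in how often they were called was not tested. Over all members the median log2 fold change (CDD over ND) was -0.02, with 17 genes above 0 and 17 below, and the median over all tested genes was 0.00. The median size of the change was 0.10 for members, 0.11 for all genes and 0.10 for the protein-coding genes tested, so the typical member moved about as much as the typical gene. Of the 14989 protein-coding genes tested, 10.8% were called. The diets did not overlap in 10 members, where 15.0% of all genes and 2650 of the 14989 protein-coding genes did not overlap. CDD brains lay above ND brains in 2 members (7.65% of all genes) and below them in 8 (7.39% of all genes). Those were the 7 called genes with *Sema3f*, *Sema6c* and *Nrp1*. Without CDD replicate 2, 8 members were called, the 7 genes and *Sema5b*. The count depended on single brains. It was 5 without CDD replicate 1, 8 without CDD replicate 3, 6 without CDD replicate 4 and 8 without ND replicate 2. The lowest count, 3, came without ND replicate 1, 3 or 4, when 688, 471 and 615 genes of the whole table were called. In those 3 settings the 3 genes were *Mical2*, *Sema4g* and *Sema7a*.

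**Figure D1:**
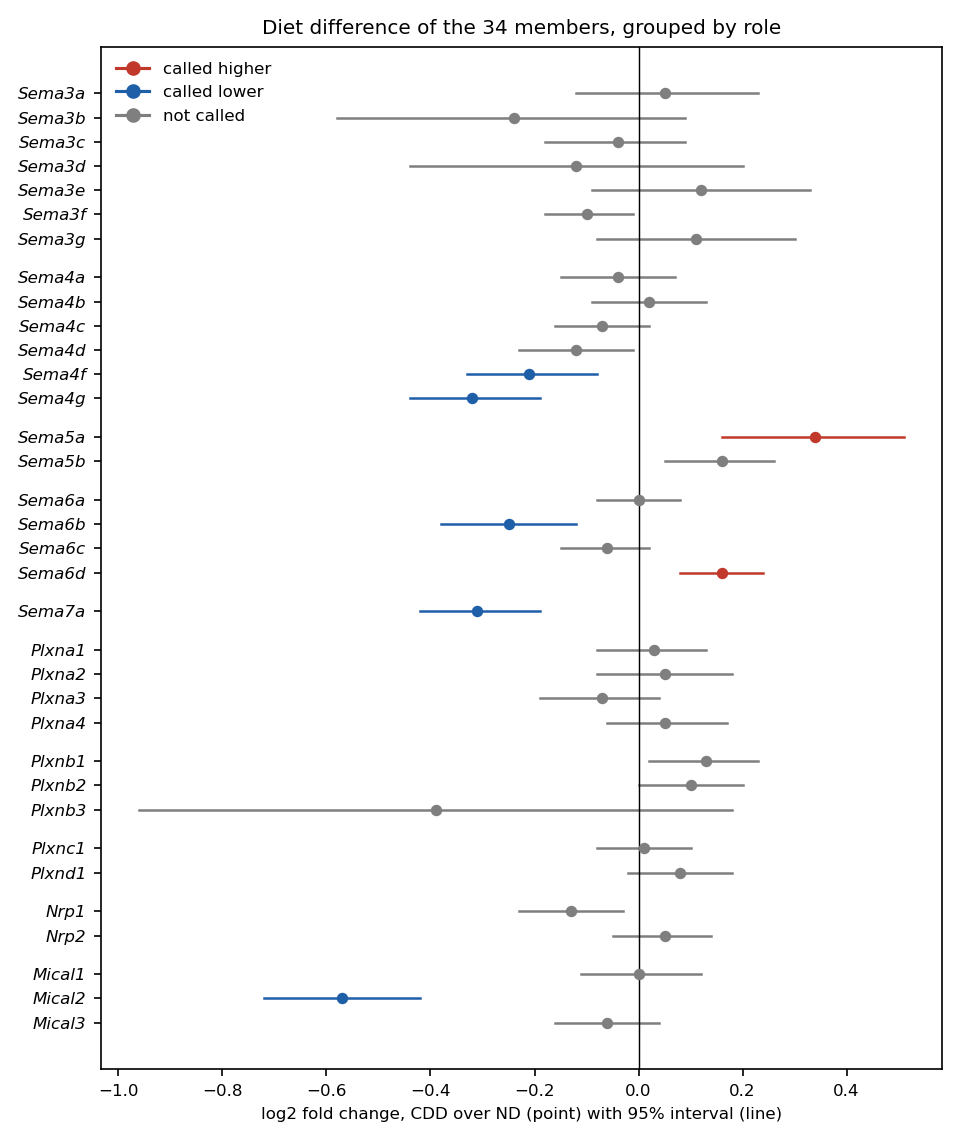
Log2 fold change of CDD over ND brains (horizontal axis) for each of the 34 members, in blocks by role from class 3 semaphorins at the top to Micals at the bottom. Points are the estimates of edgeR's quasi-likelihood fit, lines their 95% intervals, red genes were called higher, blue genes lower and grey genes neither. *Mical2* lies farthest to the left of the called genes at -0.57, and *Sema5a* farthest to the right at 0.34.

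Per listed gene length, receptors headed the family. The level per length is the CPM divided by the gene length in kilobases that the table lists, and is the scale on which genes are compared here. In ND brains *Plxna1* was highest at 49.0 ± 1.11 (SD, n = 4), followed by *Plxnb2* at 46.8 ± 1.51 and *Plxna3* at 46.5 ± 1.01. The ranges of *Plxna1* and *Plxnb2* overlapped, as did those of *Plxnb2* and *Plxna3*. The highest ligand was *Sema6c* at 39.4 ± 0.53 per kb, clear of *Plxna3* above it and of *Plxnb1* (34.1 ± 1.74) below it. Of the 34 members 19 were at 10 or more, while *Sema3e*, *Sema3b*, *Sema3d* and *Plxnb3* were under 1, with *Plxnb3* last at 0.147 ± 0.0211. Ranges overlapped in 12 of the 33 neighbouring pairs of this order. The overlapping neighbours further down were *Plxna2*, *Sema6b* and *Sema4g* in a run, *Sema3f* with *Plxna4*, *Nrp2*, *Plxnc1* and *Plxnd1* in a run, *Sema6d* with *Sema6a*, *Mical3* with *Sema4b*, *Sema4d* with *Sema3c*, *Mical1* with *Sema5a*, and *Sema3e* with *Sema3b*. In CDD brains the mean of *Plxnb2* stood first and that of *Plxna1* second, and *Sema7a* stood at rank 14 against rank 10 in ND brains. Between ND brains the median coefficient of variation was 3.56% over the members and 6.26% over all tested genes, which were not matched to the members by level. The 4 members under 1 per kb varied more, with 9.54% for *Sema3e*, 16.0% for *Sema3b*, 16.8% for *Sema3d* and 14.3% for *Plxnb3*. *Mical2*, at 1.13 per kb, had 3.01%.

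**Figure D2:**
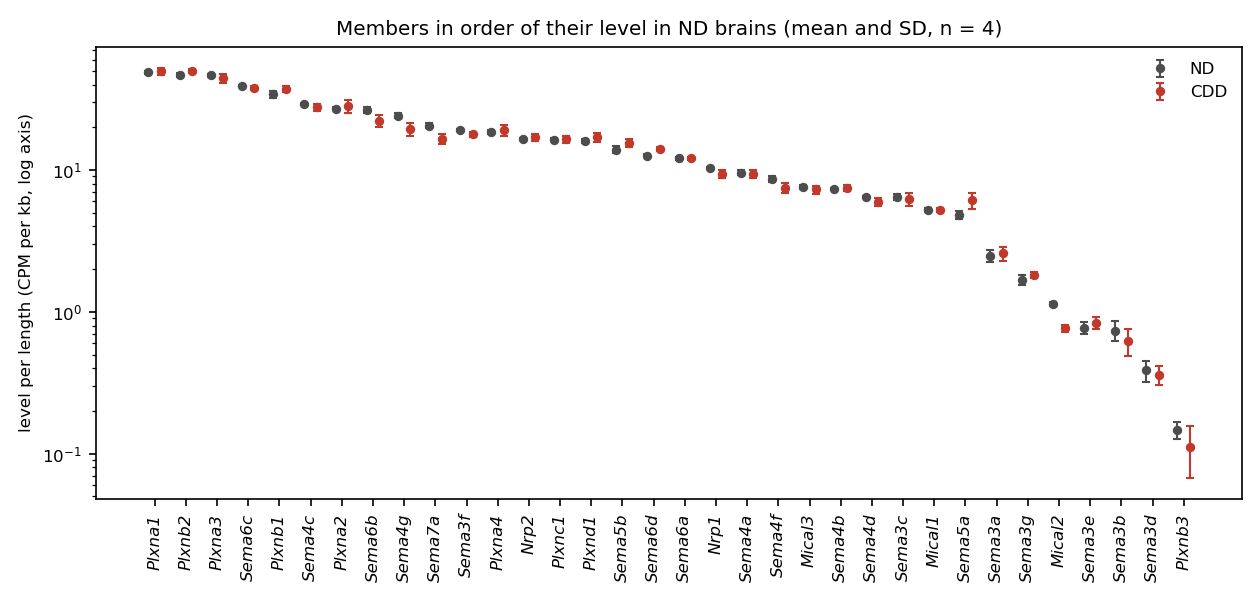
Level per length (CPM per kb, log axis) of the 34 members, in the order of their mean in ND brains. Points are means of 4 brains and bars the SD, grey for ND and red for CDD. Values run from 49.0 for *Plxna1* to 0.147 for *Plxnb3*, and the red and grey points of *Mical2* stand farther apart than those of its neighbours.

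The class 3 semaphorins are the secreted ligands. The highest of them per length was *Sema3f*, which acts through neuropilin 2 and repels hippocampal and sympathetic axons. It had 94.9, 90.8, 96.8 and 88.6 CPM in CDD replicates 1 to 4 and 97.9, 102, 99.1 and 98.0 CPM in ND replicates 1 to 4. Every CDD brain was below every ND brain, but the gap was small and the log2 fold change of -0.10 (SE 0.0418) did not pass (adjusted p = 0.164, edgeR). *Sema3a*, the ligand of neuropilin 1 that collapses growth cones, had a log2 fold change of 0.05, with a 95% interval of -0.12 to 0.23. *Sema3c*, known from the outflow tract of the heart and from cortical tracts, had a log2 fold change of -0.04 (-0.18 to 0.09). *Sema3e*, which binds plexin D1 without a neuropilin, had 0.12 (-0.09 to 0.33). *Sema3b*, *Sema3d* and *Sema3g* were scarce, at 0.737, 0.388 and 1.68 CPM per kb in ND brains. Their log2 fold changes were -0.24, -0.12 and 0.11, and the interval of *Sema3b* (-0.58 to 0.09) was wide at its 80 to 143 counts per brain. None of the 7 class 3 genes was called, and 1 of them, *Sema3f*, had an unadjusted p under 0.05. Their summed level per length was 29.8 to 31.0 in CDD and 31.2 to 31.8 in ND brains, which did not overlap. Most of this sum was *Sema3f*, with means of 17.9 in CDD and 19.1 in ND brains. Of the 7 genes, 3 had log2 fold changes above 0 and 4 below.

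Class 4 held the largest fall among the transmembrane ligands. *Sema4g* (ENSMUSG00000025207, chromosome 19, 44977540 to 44991836, plus strand, on a build the sources do not name) binds plexin B2 and acts with *Sema4c* in the cerebellum. It had 174, 158, 189 and 151 CPM in the CDD brains and 205, 206, 221 and 205 CPM in the ND brains. All 4 CDD brains were below all 4 ND brains, and CDD replicate 3 came nearest to them. The gene fell by 19.6%, a log2 fold change of -0.32 (SE 0.0597, adjusted p = 0.00454, edgeR's quasi-likelihood test). *Sema4f* (ENSMUSG00000000627, chromosome 6, 82888866 to 82916750, minus strand), a semaphorin found at synapses of glutamatergic neurons, had 37.8, 42.2, 42.1 and 36.3 CPM in CDD and 46.5, 43.5, 44.6 and 48.4 CPM in ND brains. The highest CDD and the lowest ND brain were close. The log2 fold change was -0.21 (SE 0.0595, adjusted p = 0.0361, edgeR), and this call was lost (adjusted p in brackets) without CDD replicate 1 (0.0935), CDD replicate 4 (0.0658), ND replicate 1 (0.110), ND replicate 3 (0.0894) or ND replicate 4 (0.137). It was also lost with a gene length offset and the replicate block together (-0.19, adjusted p = 0.0552, edgeR).

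The class 4 gene with the highest level per length was *Sema4c*, a ligand of plexin B2. It had 124, 123, 139 and 125 CPM in CDD and 131, 134, 135 and 135 CPM in ND brains, so that CDD replicate 3 lay above all ND brains and the other 3 CDD brains below them. Its log2 fold change was -0.07 (-0.16 to 0.02). *Sema4d*, the ligand of plexin B1, had 44.1 to 50.1 CPM in CDD and 49.2 to 50.3 CPM in ND brains, and the log2 fold change was -0.12 (adjusted p = 0.168, edgeR). Without CDD replicate 3, *Sema4d* passed the threshold at -0.16 (adjusted p = 0.0390, edgeR). *Sema4a*, known mainly from the immune system, and *Sema4b* had log2 fold changes of -0.04 and 0.02. Of the 6 class 4 genes 2 fell and none was called higher. Their summed level per length was 73.7 to 84.6 in CDD and 84.2 to 86.9 in ND brains.

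Both class 5 semaphorins, transmembrane ligands with thrombospondin repeats, had log2 fold changes above 0. *Sema5a* (ENSMUSG00000022231, chromosome 15, 32244956 to 32696487, plus strand) binds plexin B3 and proteoglycans, and with *Sema5b* it keeps retinal neurites within their layer. It had 110, 105, 106 and 136 CPM in CDD brains and 86.5, 97.8, 84.9 and 92.2 CPM in ND brains. Every CDD brain was above every ND brain, and CDD replicate 4 was far above the rest of its group. *Sema5a* rose 1.26-fold, a log2 fold change of 0.34 (SE 0.0794, adjusted p = 0.0255, edgeR's test). Without CDD replicate 4 the log2 fold change was 0.24 (adjusted p = 0.00199, edgeR), and the call was lost (adjusted p in brackets) without CDD replicate 1 (0.0515), ND replicate 1 (0.0796), ND replicate 3 (0.0908) or ND replicate 4 (0.0612). *Sema5b*, the class 5 gene with the higher level per length, had 114, 98.9, 112 and 113 CPM in CDD and 92.2, 105, 100 and 95.4 CPM in ND brains. CDD replicate 2 alone lay within the ND range. The log2 fold change of 0.16 (SE 0.0516) did not pass (adjusted p = 0.0659, edgeR), and it passed without CDD replicate 2 (0.20, adjusted p = 0.0181) and without ND replicate 2 (0.19, adjusted p = 0.0476). It also passed in edgeR with no filter on low counts (adjusted p = 0.0211), with a gene length offset (adjusted p = 0.0492) and with *Xist* as a covariate (adjusted p = 0.0297). Class 5 made up 8.48% to 10.1% of the summed semaphorin level per length in CDD brains and 7.24% to 8.17% in ND brains.

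Class 6 had a member called in each direction. Class 6 proteins are transmembrane ligands of plexin-A receptors that act without neuropilins. *Sema6b* (ENSMUSG00000001227, chromosome 17, 56430085 to 56447343, minus strand), a ligand of plexin A4 on hippocampal mossy fibres, had 75.5, 93.3, 94.4 and 90.5 CPM in CDD brains and 105, 98.6, 112 and 105 CPM in ND brains. CDD replicate 1 was lowest, and the groups did not overlap. The gene fell by 15.9%, a log2 fold change of -0.25 (SE 0.0619, adjusted p = 0.0208, edgeR). The call was lost (adjusted p in brackets) without CDD replicate 4 (0.103), ND replicate 1 (0.0663), ND replicate 3 (0.0959) or ND replicate 4 (0.0641), and without CDD replicate 1 the log2 fold change was -0.18 (adjusted p = 0.0377). *Sema6d* (ENSMUSG00000027200, chromosome 2, 123931889 to 124509690, plus strand), a ligand of plexin A1, had 147, 143, 148 and 156 CPM in CDD and 130, 133, 131 and 137 CPM in ND brains. All CDD brains were above all ND brains. *Sema6d* rose 1.12-fold, a log2 fold change of 0.16 (SE 0.0398, adjusted p = 0.0174, edgeR), and the call was lost (adjusted p in brackets) without ND replicate 1 (0.0864), ND replicate 3 (0.0956) or ND replicate 4 (0.0506).

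The class 6 gene with the highest level per length, *Sema6c*, had 214, 230, 227 and 225 CPM in CDD and 237, 237, 231 and 232 CPM in ND brains. The groups did not overlap but nearly touched, and the log2 fold change was -0.06 (-0.15 to 0.02, adjusted p = 0.390, edgeR). *Sema6a*, which guides granule cells and thalamocortical axons through plexins A2 and A4, had a mean of 107 CPM in both diets and a 95% interval of -0.08 to 0.08 on the log2 scale. The summed level per length of class 6 was 80.7 to 88.3 in CDD and 89.7 to 92.0 in ND brains, which did not overlap. Within this sum *Sema6b* moved most, from a mean of 26.5 in ND to 22.3 in CDD brains. Of the 4 genes, 2 had log2 fold changes above 0 and 2 below.

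Class 7 has the single gene *Sema7a* (ENSMUSG00000038264, chromosome 9, 57847395 to 57870148, plus strand), whose product is anchored by GPI, binds plexin C1 and integrins and has a part in olfactory tract formation. It had 53.8, 52.8, 60.9 and 51.0 CPM in CDD brains and 67.3, 66.3, 71.5 and 65.7 CPM in ND brains. The highest CDD brain stayed under the lowest ND brain. The gene fell by 19.2%, a log2 fold change of -0.31 (SE 0.0547, adjusted p = 0.00287, edgeR's test), and it stayed past the threshold whichever brain was left out (adjusted p 2.02e-04 to 0.0210). Over all 20 semaphorins the summed level per length was 225, 231, 243 and 230 in CDD replicates 1 to 4 and 244, 246, 251 and 247 in ND replicates 1 to 4. The sum thus lay lower in every CDD brain than in any ND brain. The means of *Sema4g* (24.1 to 19.4 per kb), *Sema6b* (26.5 to 22.3) and *Sema7a* (20.5 to 16.6) moved most from ND to CDD brains, while over the 20 semaphorins the median log2 fold change was -0.05, with 8 genes above 0 and 12 below. By class, the mean was lower in CDD brains for classes 3, 4, 6 and 7 and higher for class 5.

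**Figure D3:**
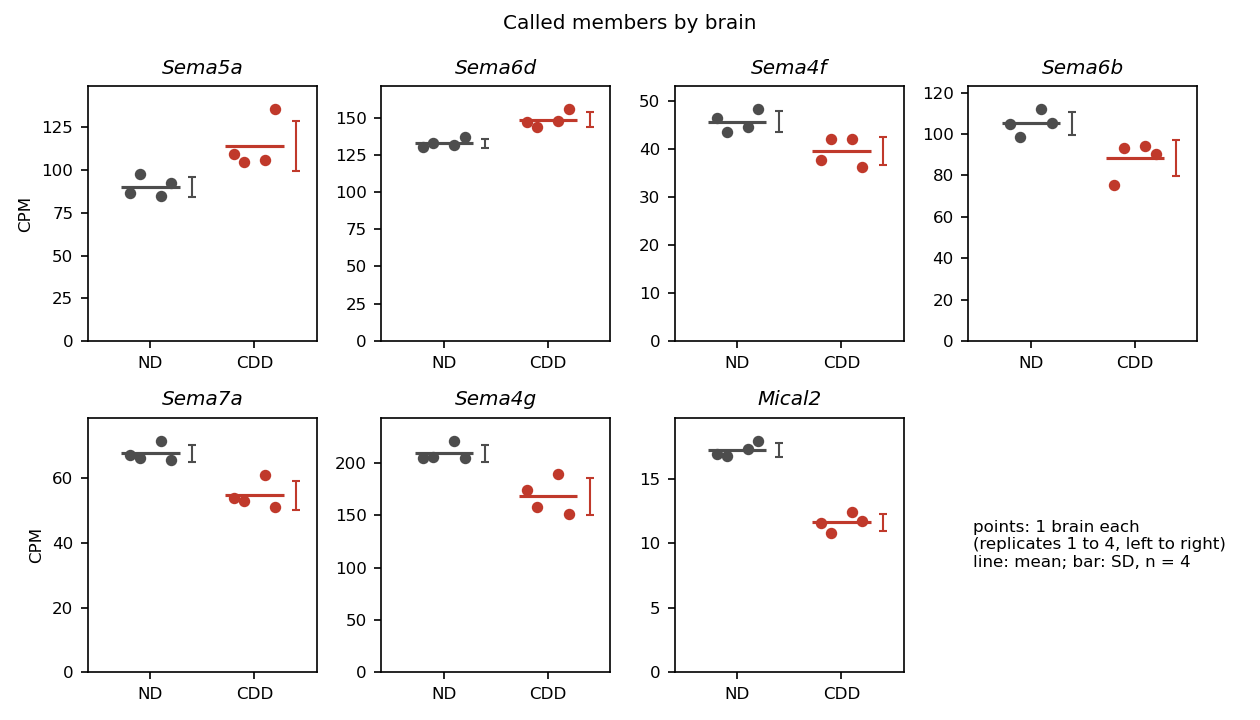
CPM (vertical axes, each from 0) of the 7 called members in ND (grey) and CDD (red) brains. Points are single brains, lines the means and bars the SD of 4 brains. In every panel the red and grey points do not overlap, and *Mical2* shows the widest relative gap, from 10.8 to 12.4 CPM in CDD against 16.8 to 18.0 CPM in ND brains.

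The plexins were abundant, and none of the 9 was called at an adjusted p under 0.05 in edgeR's test, with 2 at an unadjusted p under 0.05. *Plxna1*, a co-receptor of neuropilins and receptor of class 6 ligands, had 430, 429, 476 and 473 CPM in CDD brains and 431, 452, 451 and 440 CPM in ND brains. The 2 lower CDD brains lay just below the ND range and the 2 higher ones above it. *Plxna2*, *Plxna3* and *Plxna4* had log2 fold changes of 0.05, -0.07 and 0.05. *Plxnb2*, the receptor of *Sema4c* and *Sema4g* in neural progenitors, had 385, 372, 386 and 404 CPM in CDD and 352, 376, 365 and 351 CPM in ND brains. CDD replicate 2 fell within the ND range, and the log2 fold change was 0.10 (SE 0.047, adjusted p = 0.209, edgeR). *Plxnb1*, the receptor of *Sema4d*, lay at 342 to 376 CPM in CDD and 310 to 350 CPM in ND brains, and the log2 fold change was 0.13 (adjusted p = 0.121, edgeR).

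*Plxnb3*, a receptor of *Sema5a* found on oligodendrocyte lineage cells, was scarce, with 17 to 40 counts per brain. Its log2 fold change of -0.39 had an interval of -0.96 to 0.18, and it did not pass (adjusted p = 0.411, edgeR). The oligodendrocyte precursor list was at 95.6 to 112 CPM in CDD and 119 to 139 CPM in ND brains, and its part in the value of *Plxnb3* was not tested. *Plxnc1*, the receptor of *Sema7a*, had 136, 130, 137 and 148 CPM in CDD and 131, 136, 140 and 140 CPM in ND brains. Its groups overlapped, with a log2 fold change of 0.01 (-0.08 to 0.10), whereas its ligand fell. *Plxnd1*, the receptor of *Sema3e* on vessels and neurons, had a log2 fold change of 0.08 (-0.02 to 0.18). Leaving out *Plxnb3*, the 95% intervals of the other 8 plexins lay between -0.19 and 0.23. Plexin-A genes made up 53.1% to 54.9% of the summed plexin level per length in CDD brains and 55.2% to 55.9% in ND brains, and plexin-B genes 32.7% to 34.2% against 31.3% to 32.7%.

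**Figure D4:**
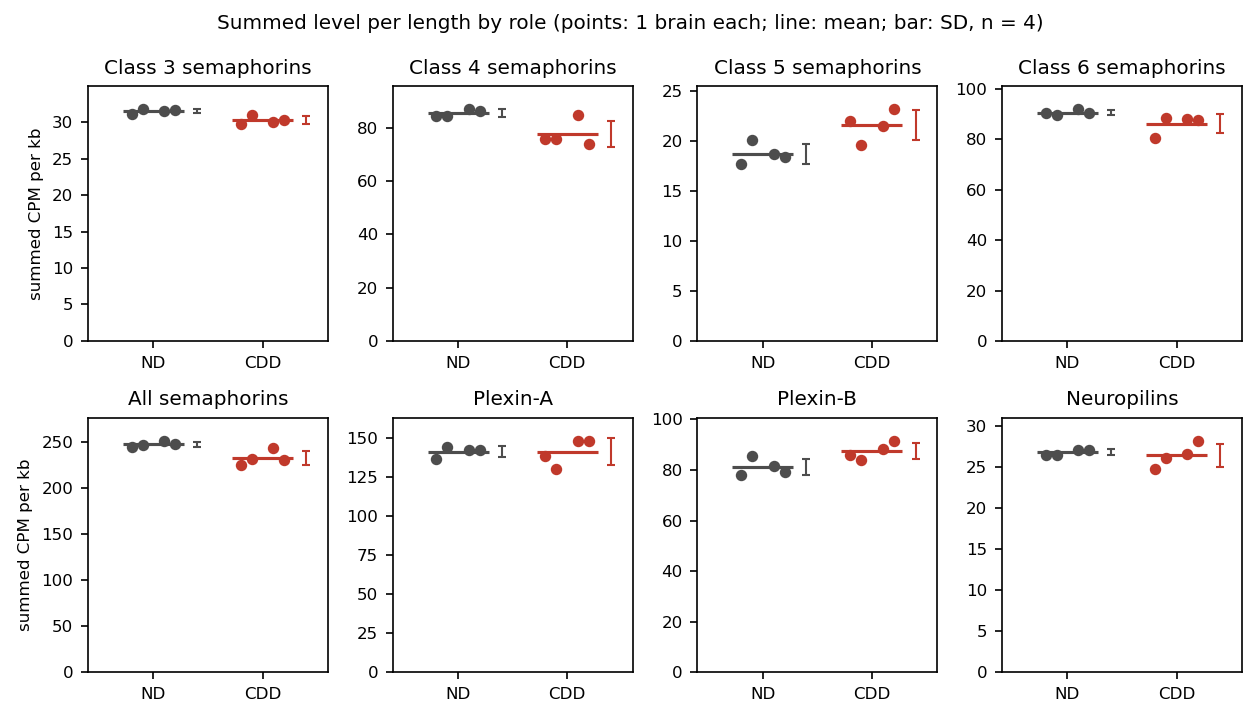
Summed level per length (CPM per kb, vertical axes from 0) of the members of 7 roles and of all semaphorins, in ND (grey) and CDD (red) brains. Points are single brains, lines the means and bars the SD of 4 brains. All semaphorins lie at 225 to 243 in CDD and 244 to 251 in ND brains, while plexin-A receptors lie at 130 to 148 and 136 to 144.

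The neuropilins hold class 3 ligands and also bind VEGF. *Nrp2* had the higher level per length and had 191, 202, 198 and 216 CPM in CDD and 194, 191, 200 and 197 CPM in ND brains. The groups overlapped, and the log2 fold change was 0.05 (-0.05 to 0.14). *Nrp1*, which also serves as a VEGF co-receptor on endothelium, had 84.7, 88.6, 96.9 and 97.9 CPM in CDD and 98.9, 102, 100 and 103 CPM in ND brains. All 4 CDD brains lay below the ND brains. The log2 fold change of -0.13 (SE 0.0477) did not pass (adjusted p = 0.0921, edgeR), and without CDD replicate 4 it was -0.16 (adjusted p = 0.0215). It also passed with a gene length offset (-0.14, adjusted p = 0.0469, edgeR) and with that offset and the replicate block (-0.15, adjusted p = 0.0491). The endothelial list was at 290 to 315 CPM in CDD and 316 to 336 CPM in ND brains, and its part in the value of *Nrp1* was not tested.

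The widest change of the family was in an effector. *Mical2* (ENSMUSG00000038244, chromosome 7, 111825063 to 112012313, plus strand) encodes an actin-oxidising enzyme that is also known to act in the nucleus on MRTF and SRF. It had 11.6, 10.8, 12.4 and 11.8 CPM in CDD brains and 16.9, 16.8, 17.3 and 18.0 CPM in ND brains. Each group was tight and the gap between them was wider than either range. *Mical2* fell by 32.5%, a log2 fold change of -0.57 (SE 0.071, adjusted p = 5.66e-04, edgeR's quasi-likelihood test), and the call held whichever brain was left out (adjusted p 1.55e-04 to 0.00603). It rests on 373 to 620 counts per brain. *Mical3*, the Mical with the highest level per length, had 159, 160, 171 and 182 CPM in CDD and 171, 170, 179 and 182 CPM in ND brains, and its groups overlapped (log2 fold change -0.06, -0.16 to 0.04). *Mical1*, the partner of plexin A, was at 30.7 to 32.6 CPM in CDD and 30.1 to 32.5 CPM in ND brains, and the log2 fold change was 0.00 (-0.11 to 0.12).

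Genes that work with the family were taken as a list of 48 partners, among them CRMP proteins, Rnd and Ras GTPases, plexin-bound exchange factors, LIM kinases and adhesion co-receptors. Of the 47 tested, 3 were called higher and 0 lower in edgeR's test, with 11 at an unadjusted p under 0.05. The share called was 6.38% of the list against 8.83% of all tested genes, so the list was not called more often than the background. The median log2 fold change was -0.02, with 18 genes above 0 and 29 below. *Rnd2*, a small GTPase that binds plexins and steers the migration of cortical neurons, had 111, 112, 112 and 108 CPM in CDD and 91.2, 96.8, 87.9 and 86.9 CPM in ND brains. It rose with a log2 fold change of 0.29 (SE 0.0428, adjusted p = 9.88e-04, edgeR). *Erbb2*, a receptor kinase that associates with plexin B, rose by 0.27 on the log2 scale (adjusted p = 0.0263, edgeR). *Myo10*, an unconventional myosin of filopodia, rose by 0.17 (adjusted p = 0.0328, edgeR). The diets overlapped in *Myo10*, at 84.2 to 96.3 CPM in CDD and 77.5 to 85.2 CPM in ND brains. The count of 3 was 2 without CDD replicate 1, 2 without CDD replicate 2, 6 without CDD replicate 3 and 1 without any of ND replicates 1, 3 and 4.

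The 250 bases before the start site are shown for *Mical2*, *Sema4g* and *Sema7a*, the 3 members called in every leave-one-out fit, and for *Sema5a*, the member with the largest rise. They were taken from RefSeq on GRCm38.p6, at chr7:112225586-112225835, chr19:44989094-44989343, chr9:57939862-57940111 and chr15:32244563-32244812, all on the plus strand. These positions cannot be set beside the gene positions given above, whose build is not named. Capitals mark exact matches, on either strand, to the GC box with the letters GGGCGG, to the CCAAT box, to the TATA box with the letters TATAAA, to the E-box with the letters CAGCTG or to the RBPJ core with the letters TGGGAA. Matches of the GC box can overlap each other.
Mical2: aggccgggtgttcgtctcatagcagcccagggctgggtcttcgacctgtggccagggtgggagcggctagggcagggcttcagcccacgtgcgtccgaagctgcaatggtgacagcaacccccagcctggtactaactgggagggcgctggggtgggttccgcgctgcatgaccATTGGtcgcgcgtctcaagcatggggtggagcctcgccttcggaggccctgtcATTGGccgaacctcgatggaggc
Sema4g: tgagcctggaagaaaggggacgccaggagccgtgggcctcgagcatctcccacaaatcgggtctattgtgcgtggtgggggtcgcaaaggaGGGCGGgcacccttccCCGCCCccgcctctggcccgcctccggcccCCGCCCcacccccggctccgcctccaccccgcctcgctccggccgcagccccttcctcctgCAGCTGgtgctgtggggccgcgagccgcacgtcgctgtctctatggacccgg
Sema7a: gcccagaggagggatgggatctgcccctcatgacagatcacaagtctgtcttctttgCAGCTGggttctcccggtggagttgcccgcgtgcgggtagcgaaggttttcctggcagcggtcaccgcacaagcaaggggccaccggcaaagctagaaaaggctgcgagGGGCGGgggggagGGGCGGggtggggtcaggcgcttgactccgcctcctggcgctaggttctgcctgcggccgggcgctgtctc
Sema5a: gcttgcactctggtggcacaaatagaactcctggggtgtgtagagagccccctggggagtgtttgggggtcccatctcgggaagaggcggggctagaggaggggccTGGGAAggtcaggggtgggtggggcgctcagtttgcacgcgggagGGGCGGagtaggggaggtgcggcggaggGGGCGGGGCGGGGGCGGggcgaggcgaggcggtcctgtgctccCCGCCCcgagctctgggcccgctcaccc

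These letters differ between the 4 genes. *Mical2* had 2 CCAAT boxes and 0 GC boxes, *Sema4g* 3 GC boxes and 1 E-box, *Sema7a* 2 GC boxes and 1 E-box, and *Sema5a* 5 GC boxes and 1 RBPJ core. RefSeq entries matched 29 of the 34 members by symbol, with 41 promoters in all. The GC box was found in 28 of these 41 promoters (68.3%), in 55.5% of the 15077 promoters of tested protein-coding genes and in 32.7% of all 32851 promoters. The CCAAT box was in 22.0% of member promoters, 34.7% of those of tested protein-coding genes and 33.8% of all. The TATA box was in 2.44%, 6.79% and 12.4%, the E-box in 14.6%, 12.4% and 13.0%, and the RBPJ core in 17.1%, 20.7% and 21.6%. Median GC content was 63.6% in member promoters, 59.6% in those of tested protein-coding genes and 52.4% over all promoters. Which start sites were used in these brains was not measured, and a match describes letters, not binding.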

How the data were processed

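Brains of WT embryos at E14.5 (4 per diet) were grouped by maternal diet, as labelled. For each gene and brain the authors deposited the raw read count, counts divided by library size factors, and FPKM values made from these. The submitters' processing notes name HISAT2 2.0.5, featureCounts 1.5.0-p3 and DESeq2 1.20.0, and the genome build is not given in the sources used here. The deposited fold changes, p-values and adjusted p-values of the authors' own comparison were not used, nor were their shorter lists of selected genes. In edgeR 4.0.16, low counts were removed by filterByExpr, libraries scaled by TMM and diets compared by the robust quasi-likelihood test, without other terms and with Benjamini-Hochberg adjustment over 19367 genes. CPM is relative to the TMM-scaled library, and the level per length divides it by the listed gene length in kilobases. The standard error is the log2 fold change divided by the root of F. The script was tested on simulated counts. Library totals of 31770217 to 43121170 counts limit scarce genes most. The members, the partner list and the marker lists were chosen with earlier results of these data known. Every member was named, with all brains given for called members and for the member of each role with the highest level per length in ND brains. The alternatives were DESeq2 1.42.0, limma-voom (limma 3.58.1), RLE and upper-quartile scaling, no filter, at least 10 counts in every brain, an adjusted p under 0.01, a length offset per gene (loess, span 0.3), a replicate block, both together, *Xist* as a covariate, the deposited FPKM with a pseudocount of 1, and each brain left out. R 4.3.3, Python 3.11.15, pandas 2.3.3 and matplotlib 3.10.9 were used.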

Additional observations from a re-analysis of the deposited data

Results flagged for a closer look

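In 4 of 68 groups of 4 brains (34 members in each diet), the highest or lowest brain lay so far from the rest that its gap over the whole range passed the critical value of Dixon's test at 95%, where chance gives about 3.4. *Sema5a* was at 136 CPM in CDD replicate 4, against 105 to 110 CPM in the other CDD brains. Leaving that brain out gave a log2 fold change of 0.24. *Sema5b* was at 98.9 CPM in CDD replicate 2, the brain with high Hox counts, against 112 to 114 CPM in the other CDD brains. *Sema4c* was at 139 CPM in CDD replicate 3, against 123 to 125 CPM. *Sema4g* was at 221 CPM in ND replicate 3, against 205 to 206 CPM in the other ND brains, and leaving it out gave a log2 fold change of -0.29 (adjusted p = 0.0250, edgeR).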

How the results depend on the processing

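*Mical2*, *Sema4g* and *Sema7a* were called in the same direction in all 8 leave-one-out fits and in all 11 other fits. With the authors' FPKM and limma, 3 members (0 higher, 3 lower), 1 partner and 519 genes were called, and *Mical2* had -0.27, on a scale that a pseudocount compresses. *Sema4f* (adjusted p = 0.0881), *Sema5a* (0.0698), *Sema6b* (0.0841) and *Sema6d* (0.0597) lost their calls there. At an adjusted p under 0.01 the counts were 3 members (0 higher, 3 lower), 1 partner and 477 genes, by the stricter threshold itself. Members called were 8 with no filter, 9 with the length offset and 8 with *Xist* as a covariate. Partners called were 5 with no filter and 5 with the length offset and replicate block, and 2 with limma-voom. Leaving out each brain gave 471 to 2495 genes, 3 to 8 members, 0 to 3 higher and 3 to 6 lower, and 1 to 6 partners. The cause of these shifts was not tested. Values near 0 changed sign without any call. *Sema3a* was -0.01 with *Xist* as a covariate and 0.00 to 0.12 over the brains left out. *Sema6a* was 0.00 with upper-quartile scaling, at least 10 counts or *Xist*, -0.01 with the length offset with and without the block, and -0.01 to 0.02 with brains left out, and *Mical1* was 0.00 with upper-quartile scaling. With brains left out *Sema3c* ranged over -0.10 to 0.01, *Plxna2* over -0.02 to 0.11, *Plxna4* over -0.01 to 0.09, *Plxnc1* over -0.03 to 0.04 and *Mical1* over -0.02 to 0.02.

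Brains of the 2 diets share replicate numbers, but deviations of same-numbered brains correlated at 0.10, -0.13, 0.12 and 0.23, so the numbers were not taken to pair them. With the replicate block 7 members were called, 2 higher and 5 lower, with 1812 genes in the whole table.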

Other observations

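Some members lie close together in the table's coordinates. *Sema3d* and *Sema3a* on chromosome 5 are separated by 536 kb and *Sema3a* and *Sema3e* by 423 kb, and the 3 genes had log2 fold changes of -0.12, 0.05 and 0.12, none of them called. *Sema3b* and *Sema3f* on chromosome 9 are separated by 72.3 kb and had -0.24 and -0.10, neither called, although their levels per length in ND brains were 0.737 and 19.1. *Plxnb3* and *Plxna3* on the X chromosome are separated by 557 kb and stood at the last and the third rank of the family, at 0.147 and 46.5 CPM per kb.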
